A study of Mus musculus with 59 samples.

Results

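The ligands and receptors of axon guidance were described in 3 mouse brain regions after a single dose of IP118/PY115 or vehicle. Members were all genes of the count table whose symbol names an ephrin, an Eph receptor, a class 3 to 7 semaphorin, a neuropilin, a plexin, a Slit, a Robo, a netrin, Dcc or an Unc5 receptor, which gave 68 of 21935 genes. They comprised 8 ephrins and 14 Eph receptors, 20 semaphorins with 2 neuropilins and 9 plexins, 3 Slits and 4 Robos, and 3 netrins with Dcc and 4 Unc5 receptors. The membership rule rests on names and uses no measured value, although it was chosen with earlier results of these data known.

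These proteins steer growing axons, and the adult brain keeps many of them for synapses, blood vessels and glia. Secreted Slits, netrins and class 3 semaphorins act over a distance, while ephrins and most other semaphorins are tethered to the membrane and act between touching cells. Slits bind Robo receptors, netrins bind Dcc and Unc5 receptors, semaphorins bind plexins, which for most of class 3 requires a neuropilin, and A and B ephrins bind Eph receptor tyrosine kinases of the same letter, with some crossing. In the hypothalamus, semaphorin and neuropilin signals are known to shape the projections of arcuate neurons to the paraventricular nucleus.

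RNA was sequenced from the paraventricular nucleus (PVN) and the arcuate nucleus (ARC) of the hypothalamus and from the nucleus of the solitary tract (NTS) of the brainstem of C57BL/6 mice. Brains were taken 4 hours after an intraperitoneal injection, and 4 mm² of each region was cut from 10 µm sections by laser capture. The 59 libraries were 10 IP118/PY115 and 10 vehicle in PVN, 10 IP118/PY115 and 9 vehicle in ARC, and 10 IP118/PY115 and 10 vehicle in NTS. The series title speaks of obese-diabetic mice and of joint activation of the PYY and GLP-1 receptors, and the labels name no diet, age or sex for any library.

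Library totals ran from 3964093 to 28510118 counts (median 10717483). Each region carried its own markers: 7 of 8 PVN genes were higher in PVN than in ARC and 8 of 8 higher than in NTS, 9 of 9 tested ARC genes were higher in ARC than in PVN and 8 of 9 higher than in NTS, and 8 of 9 NTS genes were higher in NTS than in PVN and than in ARC. The labels give each library a number but do not say which libraries share an animal, so p-values measure the spread between libraries, and those for differences between regions take libraries of shared animals as independent, which can make them too small. A library pools all cells of its area, so fewer cells of a type and less RNA per cell cannot be told apart.

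In PVN and NTS the libraries numbered 1 went against their labels. Fosb, an immediate early gene of active neurons, stood at 0.857 CPM (counts scaled to library size, with TMM factors over all libraries) in IP118/PY115 library 1 of NTS and at 18.9 to 48.8 CPM in the other 9. In vehicle NTS libraries it stood at 39.7 CPM in library 1 and at 0.141 to 2.7 CPM in the other 9. In PVN the same libraries stood at 3.34 CPM with IP118/PY115, where the other 9 stood at 11 to 48.4 CPM, and at 21.5 CPM with vehicle, where the other 9 stood at 1.47 to 16.5 CPM. In ARC, Fosb did not separate the treatments. It stood at 2.07 CPM in IP118/PY115 library 1 and 4.27 CPM in vehicle library 1, both within the vehicle range of 0.790 to 6.69 CPM. The pair numbered 1 was set apart there because earlier results of these data, not shown here, placed it likewise. By Fosb, the ARC pair cannot be said to go against its labels. All values below keep the deposited labels. Where stated, they are repeated without these 6 libraries. That choice was made from the response itself, so the p-values of those repeats come out too small.

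In all, 64 of the 68 genes were expressed well enough to be tested across regions. The A ephrin Efna4, the Eph receptor Epha1, the netrin Ntn5 and Robo3, a Robo of commissural axons, fell under the filter in every fit, with group means of at most 0.485 CPM. Epha3 was tested in ARC and NTS and not in PVN, which left 63 members there. Per kilobase of exon and over all 59 libraries, the ephrin Efnb3, a membrane ligand that repels axons at the midline, was the most abundant member, at 88.7 CPM per kb. The plexin Plxnc1, receptor of Sema7a, followed at 36.4, then the class 6 semaphorin Sema6b at 25.8, Slit1 at 23.1 and the class 4 semaphorin Sema4a at 19.6 CPM per kb. Within their families, the kinase-dead Eph receptor Ephb6 led the B receptors at 18, Epha4 the A receptors at 5.25, Efna5 the A ephrins at 14.8, Unc5d the Unc5 receptors at 16.8 and Nrp2 the neuropilins at 10.3 CPM per kb. Plxna1 led the A plexins at 11, Plxnb2 the B plexins at 16.5, Sema3c class 3 at 5.95, Sema5a class 5 at 6.33, and Sema7a and Plxnd1, each alone in its class, stood at 11.9 and 3.7 CPM per kb. Robo2 led the Robos at 3.84, while the netrins and Dcc were low, with Ntn4 leading the netrins at 2.63 and the netrin receptor Dcc at 0.496 CPM per kb.

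**Figure D1:**
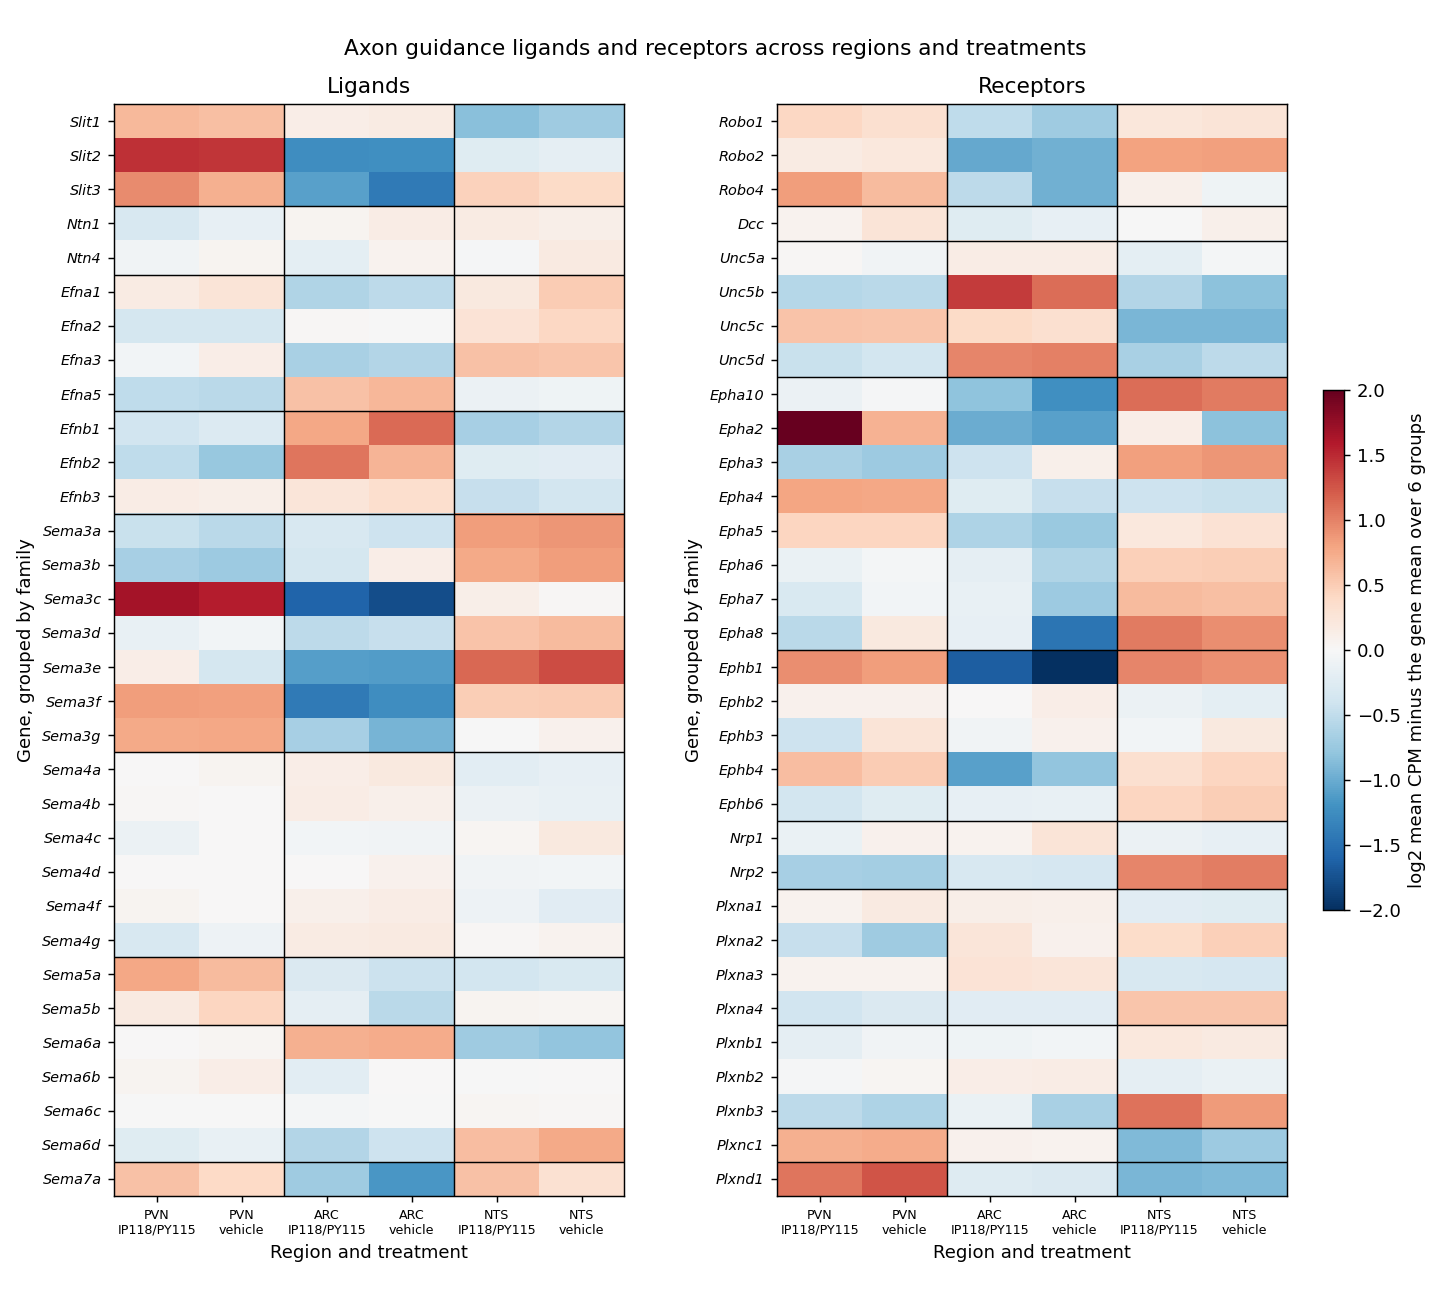
Mean level of the 64 tested members in each region and treatment, as log2 mean CPM minus the mean of the 6 group values of that gene; ligands stand left, receptors right, lines divide families, and colours saturate at 2. In most rows the 2 treatment columns of a region share a colour and the regions differ; Sema3c and Slit2 are highest in PVN, Unc5b, Unc5d and Efnb1 in ARC, and Nrp2 and Sema3e in NTS.

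The dose was compared with vehicle in each region, which is the question the study's design text states. In PVN, 1 member rose and 1 fell, and both were Eph receptors. Epha2, a receptor for A ephrins that epithelia and vessels also use, ran from 4.75 to 22.1 CPM (median 9.59) in IP118/PY115 PVN libraries and from 1.9 to 8.88 CPM (median 3.36) in vehicle PVN libraries. All 10 IP118/PY115 libraries lay above the vehicle median, and the groups overlapped. The mean was 10.5 ± 5.11 CPM with IP118/PY115 and 4.04 ± 2.02 CPM with vehicle (SD, n = 10 each; log2 fold change 1.34 ± 0.28, FDR = 0.0299). The pair numbered 1 lay at the inner ends of both ranges, with 4.75 CPM in the IP118/PY115 library, the lowest of its group, and 8.88 CPM in the vehicle library, the highest of its group.

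Ephb3, a receptor for B ephrins, moved the other way. It ran from 3.06 to 6.47 CPM (median 4.83) in IP118/PY115 PVN libraries and from 5.5 to 10.5 CPM (median 7.6) in vehicle PVN libraries, with all 10 IP118/PY115 libraries under the vehicle median and overlapping groups. The mean was 4.85 ± 0.957 CPM with IP118/PY115 and 7.71 ± 1.71 CPM with vehicle (log2 fold change -0.65 ± 0.14, FDR = 0.0299). By edgeR's quasi-likelihood test these were 2 of 63 members (3.17%), where 0.656% of all 13409 genes tested were called at a Benjamini-Hochberg FDR under 0.05, 0.529% higher and 0.127% lower. The median log2 fold change was -0.01 over members and -0.02 over all genes.

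Both PVN calls depended on the processing. DESeq2 (FDR = 0.00197 for Epha2 and 0.00261 for Ephb3) and limma-voom (0.00736 and 0.00507) kept both. So did edgeR with RLE size factors, with library totals alone and without the low count filter. Both were lost with log10 library total as a covariate (Epha2 1.23 ± 0.29, FDR = 0.122; Ephb3 -0.57 ± 0.15, FDR = 0.173). They were also lost with an oligodendrocyte marker score as a covariate (Epha2 1.03 ± 0.25, FDR = 0.137; Ephb3 -0.57 ± 0.15, FDR = 0.157) and without vehicle libraries 8, 9 and 10, whose label numbers stand apart (Epha2 1.17 ± 0.35, FDR = 0.212; Ephb3 -0.58 ± 0.15, FDR = 0.0873). The log2 fold changes kept their sign in all 29 alternatives, at 1.03 to 1.69 for Epha2 and -0.73 to -0.57 for Ephb3. Leaving out 1 library at a time, Epha2 kept its call without IP118/PY115 library 1, 2, 4 or 9 or vehicle library 1, 2, 5 or 7 and lost it without any of the other 12, at log2 fold changes of 1.15 to 1.60. Ephb3 kept its call without IP118/PY115 library 1 or 9 or vehicle library 1, 5, 7, 9 or 10 and lost it without any of the other 13, at -0.71 to -0.59. Median library totals were 12241201 counts in IP118/PY115 and 8612590 in vehicle PVN libraries, and the part of depth in these calls was not tested beyond that covariate. The summed level of 11 oligodendrocyte markers overlapped, at 820.3 to 1341 CPM in IP118/PY115 and 959 to 1384 CPM in vehicle PVN libraries.

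Without the PVN libraries numbered 1, Epha2 stood higher by 1.69 ± 0.24 (log2; FDR = 1.18e-04) and Ephb3 fell by 0.73 ± 0.15 (FDR = 0.00339). Sema3e, a secreted semaphorin that binds Plxnd1 directly, then also passed (log2 fold change 0.59 ± 0.16, FDR = 0.0426). That made 3 members called, where 3.22% of all genes were. With every library kept, Sema3e had a mean of 17.4 ± 5.54 CPM with IP118/PY115 and 12.4 ± 2.95 CPM with vehicle in PVN and did not pass (log2 fold change 0.48 ± 0.17, FDR = 0.276).

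The next members by p in PVN did not pass. Epha8, another receptor for A ephrins, averaged 1.96 ± 0.601 CPM with IP118/PY115 and 3.28 ± 0.927 CPM with vehicle (log2 fold change -0.72 ± 0.21, FDR = 0.119), and DESeq2 called it (FDR = 0.0437). Plxna2, a semaphorin receptor that works with neuropilins and also binds Sema6a, averaged 88.7 ± 8.61 CPM with IP118/PY115 and 75.2 ± 10.5 CPM with vehicle (log2 fold change 0.24 ± 0.08, FDR = 0.175), and limma-voom called it (FDR = 0.00899). The plexin Plxnd1 was also called by limma-voom (log2 fold change -0.25 ± 0.07, FDR = 0.0294).

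In ARC no member passed by edgeR, and the 2 of smallest p were both B ephrins, with opposite signs. B ephrins are transmembrane ligands that also signal back into their own cell. Efnb2 ran from 62.9 to 103 CPM (median 80.9) in IP118/PY115 ARC libraries and from 51.4 to 77.6 CPM (median 59.5) in vehicle ARC libraries (log2 fold change 0.40 ± 0.09, FDR = 0.0896). All 10 IP118/PY115 libraries lay above the vehicle median. Efnb1 ran from 32.8 to 50.6 CPM (median 44.9) in IP118/PY115 ARC libraries and from 43.7 to 63.9 CPM (median 57.3) in vehicle ARC libraries (log2 fold change -0.36 ± 0.08, FDR = 0.0896), with all 10 IP118/PY115 libraries under the vehicle median. For both genes the groups overlapped. The libraries numbered 1 lay inside the overlap, with 65.3 CPM of Efnb2 and 46 CPM of Efnb1 in the IP118/PY115 library and 77.6 and 45.6 CPM in the vehicle library.

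The count of 0 of 64 ARC members stood beside 0% of 13484 genes, with 8 members and 971 genes at an unadjusted p under 0.05. DESeq2 called 2 members, Efnb1 (FDR = 0.0102) and Efnb2 (FDR = 0.00718), and limma-voom called 0. With the oligodendrocyte score as a covariate Efnb2 alone passed (FDR = 0.00828). Without both libraries numbered 1, Efnb2 (log2 fold change 0.48 ± 0.08, FDR = 7.29e-04) and Efnb1 (-0.40 ± 0.08, FDR = 0.00748) passed, where 1.14% of all genes did, and leaving out either of these 2 libraries alone was enough for both calls. Sema6b (log2 fold change -0.22 ± 0.07, FDR = 0.329) and Plxna2 (log2 fold change 0.16 ± 0.05, FDR = 0.385) followed in ARC.

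IP118/PY115 library 2 of ARC stood apart. Its summed oligodendrocyte markers were 6037 CPM, against 494 to 2161 CPM in the other 18 ARC libraries, and all 11 of those markers had a positive log2 fold change in ARC, with 0 called. Epha8 stood at 17.2 CPM in that library, where its ARC medians were 0.976 CPM with IP118/PY115 and 0.681 CPM with vehicle. Without it the count in ARC remained 0 of 64.

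In NTS the count was 0 of 64 as well, beside 0% of 13696 genes, by edgeR, by DESeq2 and by limma-voom, with 2 members and 795 genes at an unadjusted p under 0.05. Epha2 again had the smallest p. It ran from 1.92 to 4.02 CPM (median 2.5) in IP118/PY115 NTS libraries and from 0 to 2.82 CPM (median 1.43) in vehicle NTS libraries, with all 10 IP118/PY115 libraries above the vehicle median (log2 fold change 1.0 ± 0.32, FDR = 0.365; log2 fold change 1.18 ± 0.33, FDR = 0.109 without the libraries numbered 1). Epha2 was scarce in ARC, at 1.26 ± 0.643 CPM with IP118/PY115 and 1.18 ± 0.691 CPM with vehicle (log2 fold change 0.08 ± 0.40, FDR = 0.981). The netrin receptor Unc5a (log2 fold change -0.16 ± 0.06, FDR = 0.519), Ntn4 (log2 fold change -0.22 ± 0.12, FDR = 0.959) and Sema3e (log2 fold change -0.15 ± 0.08, FDR = 0.961) came next in NTS and did not pass.

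**Figure D2:**
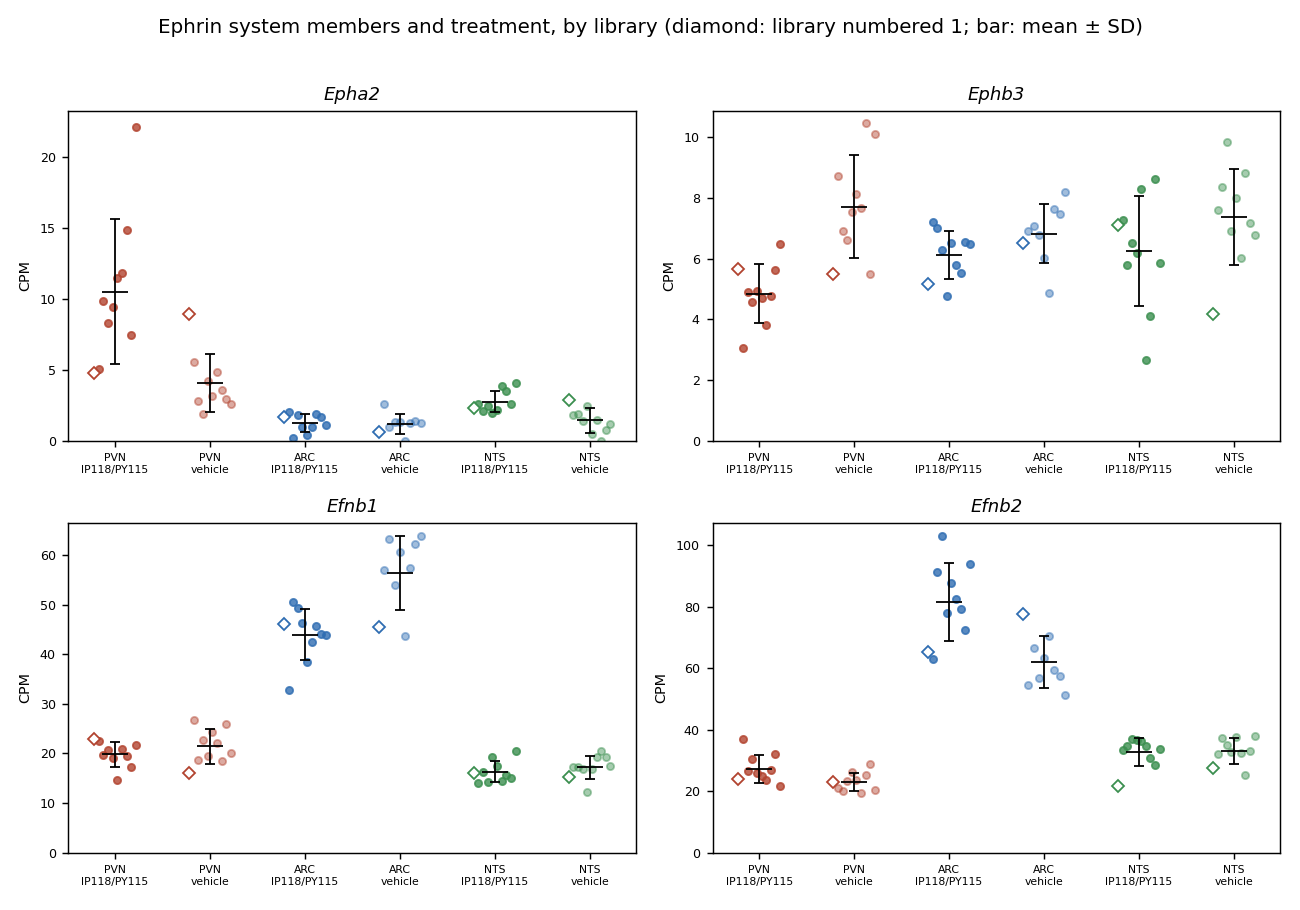
CPM of Epha2, Ephb3, Efnb1 and Efnb2 in each library, with IP118/PY115 left of vehicle in each region; bars are mean ± SD over 9 or 10 libraries and open diamonds mark the libraries numbered 1. Epha2 is higher with IP118/PY115 in PVN (means 10.5 and 4.04 CPM), and in every pair of columns the groups overlap.

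Tests of the treatment effect of one region against that of another called 0 members in all 3 pairs. At an unadjusted p under 0.05 stood 8 members for PVN minus ARC, 4 for PVN minus NTS and 4 for ARC minus NTS. The number of all genes at that threshold is not given here, so these counts are not read further. By FDR, 0.0487%, 0.0904% and 0% of all 14379 genes were called, in the same order. So neither the Epha2 nor the Ephb3 effect of PVN was shown to differ from that of another region (Epha2 in PVN minus ARC 1.28 ± 0.49, FDR = 0.650; Ephb3 in PVN minus ARC -0.49 ± 0.21, FDR = 0.709). Without the libraries numbered 1, 1 member passed, Sema3e in PVN minus NTS (log2 fold change 0.77 ± 0.18, FDR = 0.0204), where it had an FDR of 0.378 with every library kept.

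The promoters of the 4 ephrin system genes above are shown because these genes had the smallest p for treatment in PVN and ARC. They are the bases before the RefSeq transcription start (GRCm38.p6), 5′ to 3′ on the gene's own strand, with motif matches in capitals, and that of Ephb3 is trimmed to the bases outside the GENCODE gene. The Epha2 gene (ENSMUSG00000006445, chromosome 4, 141301240 to 141329384, plus strand) has its window at chr4:141300971-141301220 on the plus strand, Ephb3 (ENSMUSG00000005958, chromosome 16, 21204755 to 21223305, plus strand) at chr16:21204545-21204754 on the plus strand, Efnb1 (ENSMUSG00000031217, chromosome X, 99136130 to 99148991, plus strand) at chrX:99135811-99136060 on the plus strand, and Efnb2 (ENSMUSG00000001300, chromosome 8, 8617434 to 8661242, minus strand) at chr8:8661243-8661492 on the minus strand.
Epha2: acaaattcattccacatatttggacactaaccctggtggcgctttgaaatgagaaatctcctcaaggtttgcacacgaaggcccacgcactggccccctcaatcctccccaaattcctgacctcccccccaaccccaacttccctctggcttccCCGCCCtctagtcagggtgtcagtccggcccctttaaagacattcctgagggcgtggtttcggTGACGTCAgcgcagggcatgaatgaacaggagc
Ephb3: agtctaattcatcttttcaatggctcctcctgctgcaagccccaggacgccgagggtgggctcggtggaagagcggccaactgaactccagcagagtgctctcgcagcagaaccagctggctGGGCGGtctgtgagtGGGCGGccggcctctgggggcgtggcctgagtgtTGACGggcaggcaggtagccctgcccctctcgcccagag
Efnb1: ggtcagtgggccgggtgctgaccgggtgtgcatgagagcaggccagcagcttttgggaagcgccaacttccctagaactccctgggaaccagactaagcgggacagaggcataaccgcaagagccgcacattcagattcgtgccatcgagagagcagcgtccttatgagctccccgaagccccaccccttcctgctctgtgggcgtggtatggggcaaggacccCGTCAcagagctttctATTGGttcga
Efnb2: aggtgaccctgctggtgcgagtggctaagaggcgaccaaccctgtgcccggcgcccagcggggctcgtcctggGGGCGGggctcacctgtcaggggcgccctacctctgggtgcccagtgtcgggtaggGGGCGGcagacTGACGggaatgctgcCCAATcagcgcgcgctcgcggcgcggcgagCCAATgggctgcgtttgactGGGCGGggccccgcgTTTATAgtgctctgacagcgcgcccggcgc

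Both strands of 250 bases before the start were searched for 8 motifs: the cAMP response element TGACGTCA and its half-site TGACG, the AP-1 site TGANTCA, the glucocorticoid response element, the Egr site GCGTGGGCG, the GC box GGGCGG, the CCAAT box CCAAT and the TATA box TATAAA. Epha2 held a full cAMP response element at -33 to -26 from its start, which includes a half-site on each strand, and 1 GC box on the minus strand. A full element occurred in 1.55% of 32851 mouse promoters. Among 74 member promoters, from 58 members, the share was 1.35%, which was the Epha2 promoter alone. Ephb3 held 2 GC boxes and a half-site. Efnb1 held a half-site and a CCAAT box, both on the strand opposite the gene. Efnb2 held 3 GC boxes, a half-site and 2 CCAAT boxes on its own strand. Its TATA box letters lay on the opposite strand. The half-site lay in 17.8% of all promoters and in 7 member promoters (9.46%). None of the 4 windows held the AP-1, glucocorticoid or Egr letters, which lay in 6.75%, 0.387% and 0.536% of all promoters. GC boxes were in 70.3% of member promoters and 32.7% of all, and median GC content was 64.4% and 52.4%. CCAAT and TATA boxes lay in 27% and 2.7% of member promoters and in 33.8% and 12.4% of all. A match describes letters and is no binding site.

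The regions differed far more than the treatments did. Label numbers ran in blocks by region, 5465 to 5484 in PVN, 5509 to 5528 in ARC and 5726 to 5745 in NTS. Only vehicle libraries 5553 to 5557 held both PVN and ARC, and both treatments occurred in each region's block. What the numbers stand for is not stated, so region and number block cannot be told apart. In vehicle libraries, 40 of 64 members differed between PVN and ARC (62.5%; all genes 46%), 28 of them higher in PVN and 12 lower (all genes 24.8% and 21.1%). Between PVN and NTS 42 differed (65.6%; all genes 56.1%), 22 higher in PVN and 20 lower (all genes 28.3% and 27.8%). Between ARC and NTS 53 differed (82.8%; all genes 61.7%), 20 higher in ARC and 33 lower (all genes 30.2% and 31.5%). The median absolute log2 fold change was 0.66 over members and 0.23 over all genes for PVN and ARC, 0.45 and 0.28 for PVN and NTS, and 0.79 and 0.32 for ARC and NTS. Tested against a 1.5-fold change, 24 members (11% of all genes), 21 (13.2%) and 33 (18%) passed. The signed medians were 0.10 over members and 0.01 over all genes for PVN over ARC, 0.08 and 0.002 for PVN over NTS, and -0.27 and -0.01 for ARC over NTS.

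Region values from here on are of vehicle libraries unless stated. Of the 64 members, 56 differed in at least 1 pair of regions and 26 in all 3. Against both other regions, 13 members were higher in PVN, 8 in ARC and 18 in NTS, while 6 were lower in PVN, 21 were in ARC and 13 were in NTS. The share of all genes with each of these patterns is not given here, so the counts do not set the members apart. In the single pairs, 46% of all genes differed for PVN and ARC, 56.1% for PVN and NTS and 61.7% for ARC and NTS. The 8 members that passed in no pair of vehicle groups were Ephb3, Dcc, Ntn1, Ntn4 and the semaphorins Sema4d, Sema4g, Sema6b and Sema6c. Scaled by library totals alone, the split between PVN and ARC was 25 higher and 18 lower, and no called member changed direction.

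Cell type markers differed between the regions too. The summed level of 9 endothelial markers spanned 379 to 528 CPM over vehicle PVN libraries, 100.03 to 136 over ARC and 189 to 261 over NTS ones, and all 9 were higher in PVN than in ARC and in NTS and lower in ARC than in NTS. Oligodendrocyte markers summed to 959 to 1384 CPM in PVN, 494 to 1353 in ARC and 2287 to 6974 in NTS, with 11 of 11 higher in NTS than in either other region, and of 9 astrocyte markers 8 were higher in NTS than in PVN and 9 higher than in ARC. No marker of these lists was at 0 in every library of a group. With an endothelial score as a covariate, chosen after those sums were seen, 15 members passed for PVN and ARC, 39 for PVN and NTS and 33 for ARC and NTS, where 10.6%, 40.7% and 32.9% of all genes did. Endothelial sums of vehicle libraries did not overlap in any pair of regions, so that fit leans on the spread within groups. In it Epha4 (-1.46), Epha7 (-2.14), Epha8 (-4.29) and Sema7a (-2.12) passed with the direction turned for PVN over ARC, and Plxnb3 passed that had not. With an oligodendrocyte score 38, 38 and 37 members passed, where 41.9%, 45% and 37.8% of all genes did. Oligodendrocyte sums of vehicle NTS libraries overlapped with neither other region, so for NTS this fit also leans on the spread within groups. The part of astrocytes was not tested.

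Slits were high in PVN. All 3 were higher in PVN than in ARC and than in NTS, with a median log2 fold change of 2.10 over ARC and 1.32 over NTS. Slit2, a secreted repellent of axons, ran from 101 to 216 CPM (median 170.3) in PVN, from 22.6 to 31.4 (median 26.5) in ARC and from 45.3 to 64.8 (median 56) in NTS, with no overlap between PVN and either other region (PVN over ARC: log2 fold change 2.65 ± 0.10, FDR = 1.26e-33; PVN over NTS: log2 fold change 1.61 ± 0.09, FDR = 8.69e-25). Slit3 ran from 11.3 to 33.3 CPM (median 27.7) in PVN, from 3.23 to 8.27 (median 5.94) in ARC and from 16.4 to 32.9 (median 17.7) in NTS (PVN over ARC: log2 fold change 2.10 ± 0.17, FDR = 2.92e-17). Its PVN and ARC libraries did not overlap, and its excess over NTS was small (log2 fold change 0.34 ± 0.14, FDR = 0.0372) and was lost when scaled by library totals alone. Slit1, the most abundant Slit per kb, averaged 193 ± 29.3 CPM in PVN, 142 ± 20.9 CPM in ARC and 77.4 ± 13.2 CPM in NTS (PVN over NTS 1.32 ± 0.10, ARC over NTS 0.88 ± 0.10).

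The Robo receptors were low in ARC, with all 3 tested Robos lower there than in PVN and than in NTS. Robo2 was highest in NTS, averaging 66.1 ± 12.6 CPM in PVN, 29.3 ± 3.75 CPM in ARC and 101 ± 8.97 CPM in NTS (ARC over NTS -1.78 ± 0.09). Robo1 averaged 36.4 ± 5.13 CPM in PVN, 17.8 ± 2.25 CPM in ARC and 34.9 ± 4.65 CPM in NTS (PVN over ARC 1.02 ± 0.12). Robo4, which is known mainly from endothelium, averaged 12.2 ± 2.81 CPM in PVN, 4.05 ± 1.44 CPM in ARC and 7.4 ± 1.8 CPM in NTS (PVN over ARC 1.59 ± 0.16), the same order as the endothelial marker sums. With the endothelial score as a covariate Slit2, Slit3 and Robo2 kept their calls between PVN and ARC (2.08, 2.49 and 0.80), and Slit1, Robo1 and Robo4 lost theirs.

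In the netrin system all 4 Unc5 receptors passed the test between vehicle regions, and the ligands and Dcc did not. Ntn1 averaged 12.1 ± 1.47 CPM in PVN, 15.1 ± 4.32 CPM in ARC and 14.8 ± 4.2 CPM in NTS, Ntn4, a netrin of basement membranes, 10.2 ± 2.73 CPM, 10.3 ± 1.88 CPM and 11.2 ± 1.74 CPM, and Dcc, the receptor for attraction, 7.74 ± 3.27 CPM, 5.76 ± 1.59 CPM and 6.94 ± 1.52 CPM. None of these 3 passed in any pair of vehicle groups. In IP118/PY115 libraries Ntn1 did pass, at 10.9 ± 0.907 CPM in PVN, 14.1 ± 2.43 CPM in ARC and 15.3 ± 3.95 CPM in NTS (PVN over ARC -0.37 ± 0.14, FDR = 0.0219; PVN over NTS -0.48 ± 0.14, FDR = 0.00182), with log2 fold changes of -0.33 and -0.29 in vehicle libraries. The Unc5 receptors, which mediate repulsion by netrin, were higher in ARC than in NTS in 4 of 4 cases (median log2 fold change 1.38), and Unc5a, Unc5b and Unc5d were higher in ARC than in PVN as well.

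Unc5b, which also guides vessels, ran from 10.2 to 28 CPM (median 21.5) in PVN, from 48.3 to 85 (median 61.7) in ARC and from 7.41 to 27.3 (median 16.3) in NTS. ARC did not overlap with either other region (PVN over ARC: log2 fold change -1.64 ± 0.19, FDR = 6.41e-11; ARC over NTS: log2 fold change 1.93 ± 0.19, FDR = 1.58e-13). Unc5d, the most abundant of the family per kb, ran from 76.6 to 139.8 CPM (median 107) in PVN, from 216 to 327 (median 272) in ARC and from 67.3 to 117 (median 99.2) in NTS and set ARC apart in the same way (PVN over ARC: log2 fold change -1.38 ± 0.11, FDR = 6.50e-17; ARC over NTS: log2 fold change 1.53 ± 0.11, FDR = 4.49e-19). With the endothelial score as a covariate its difference between PVN and ARC was -0.37 (FDR = 0.497), while that of Unc5b was -2.35 and passed. Unc5c departed from its family. It ran from 76.3 to 129 CPM (median 118) in PVN, from 76.1 to 109.9 (median 95.6) in ARC and from 32.2 to 51.8 (median 39.1) in NTS, so that PVN and ARC overlapped and NTS lay under both (PVN over NTS: log2 fold change 1.47 ± 0.08, FDR = 4.56e-26). Unc5a differed little, at 63.6 ± 8.48 CPM in PVN, 74.1 ± 8.75 CPM in ARC and 65.2 ± 5.67 CPM in NTS (ARC over NTS 0.18 ± 0.07). Between PVN and ARC, Unc5a did not pass in IP118/PY115 libraries.

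Ephrins and their receptors split by region in vehicle libraries, with B ephrins high in ARC and many Eph receptors low there. All 3 B ephrins were higher in ARC than in PVN and than in NTS. Efnb1 ran from 16.1 to 26.6 CPM (median 21) in PVN, from 43.7 to 63.9 (median 57.3) in ARC and from 12.3 to 20.6 (median 17.3) in NTS and Efnb2 from 19.3 to 28.9 CPM (median 23) in PVN, from 51.4 to 77.6 (median 59.5) in ARC and from 25.2 to 37.9 (median 33) in NTS. For both, ARC did not overlap with PVN (PVN over ARC: log2 fold change -1.39 ± 0.09, FDR = 3.22e-21 for Efnb1; log2 fold change -1.42 ± 0.10, FDR = 1.85e-20 for Efnb2). Neither overlapped between ARC and NTS (Efnb1 1.71 ± 0.09, Efnb2 0.89 ± 0.09). Efnb3 averaged 299 ± 42.3 CPM in PVN, 351 ± 38.2 CPM in ARC and 214 ± 20.7 CPM in NTS (PVN over ARC -0.23 ± 0.06). Between PVN and ARC, Efnb3 did not pass in IP118/PY115 libraries. The A ephrins had no common pattern. Efna5 was highest in ARC, at 39.3 ± 5.23 CPM in PVN, 90.4 ± 9.32 CPM in ARC and 54 ± 7.68 CPM in NTS (PVN over ARC -1.21 ± 0.08), Efna3 was lowest in ARC at 22 ± 3.85 CPM (ARC over NTS -1.13 ± 0.08), and Efna1 and Efna2 stayed under 6 CPM in every group mean.

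Of the 13 tested Eph receptors, 9 were higher in PVN than in ARC and 1, Epha3, was lower, while 9 were lower in ARC than in NTS and 1, Ephb2, was higher. Ephb1, a receptor for B ephrins, ran from 59.9 to 102 CPM (median 81.3) in PVN, from 7.96 to 15.3 (median 11.9) in ARC and from 70.4 to 98.2 (median 85.8) in NTS. ARC lay under both other regions without overlap (PVN over ARC: log2 fold change 2.84 ± 0.12, FDR = 9.36e-30; ARC over NTS: log2 fold change -2.92 ± 0.12, FDR = 8.81e-31), and PVN and NTS overlapped. With the endothelial score as a covariate its excess in PVN over ARC was 1.37, and passed. Epha10, a receptor without kinase activity, ran from 15.1 to 28.3 CPM (median 20.4) in PVN, from 6.46 to 13.6 (median 8.33) in ARC and from 35.6 to 56.3 (median 41.7) in NTS (ARC over NTS: log2 fold change -2.26 ± 0.16, FDR = 1.78e-19), with NTS above both other regions.

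Epha4, which binds ephrins of both classes, was highest in PVN, at 66.3 ± 9.68 CPM, against 28.2 ± 8.9 CPM in ARC and 28.53 ± 4.46 CPM in NTS (PVN over NTS 1.22 ± 0.17). Epha5, Ephb4, Epha6, Epha7 and Epha8 were lowest in ARC, with log2 differences of PVN over ARC of 1.15, 1.33, 0.58, 0.65 and 1.61. Of these, Epha6, Epha7 and Epha8 did not pass between PVN and ARC in IP118/PY115 libraries. There, 6 Eph receptors were higher in PVN than in ARC and 1, Ephb6, was lower, and 10 were lower in ARC than in NTS. In those libraries Epha3 did not pass between PVN and ARC, and Ephb2 passed in no pair of regions. Epha3 averaged 3.21 ± 1.1 CPM in NTS and Ephb6 92.9 ± 6.91 CPM, each higher there than in both hypothalamic regions. Epha2, the gene called for treatment, was higher in vehicle PVN than in vehicle ARC (log2 fold change 1.79 ± 0.36) and NTS (1.59 ± 0.34), and lost both calls with the endothelial score as a covariate. Ephb2 averaged 27.3 ± 4.87 CPM in PVN, 28.2 ± 3.25 CPM in ARC and 22.5 ± 3.35 CPM in NTS.

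The secreted class 3 semaphorins were all lower in ARC than in NTS (7 of 7; median log2 fold change -1.28) and divided between the other regions. Sema3c, which binds both neuropilins, ran from 62.9 to 115 CPM (median 83) in PVN, from 5.4 to 12.5 (median 7.06) in ARC and from 17.9 to 43 (median 30.7) in NTS. No pair of regions overlapped (PVN over ARC: log2 fold change 3.33 ± 0.15, FDR = 2.10e-27; PVN over NTS: log2 fold change 1.54 ± 0.13, FDR = 8.68e-16; ARC over NTS: log2 fold change -1.79 ± 0.15, FDR = 5.95e-16), and its excess in PVN over ARC was the largest among members of at least 5 CPM. Sema3e ran from 6.91 to 15.9 CPM (median 12.8) in PVN, from 5.59 to 9.27 (median 6.84) in ARC and from 32.5 to 46.3 (median 38.8) in NTS and was highest in NTS, without overlap (PVN over NTS: log2 fold change -1.64 ± 0.13, FDR = 6.06e-17; ARC over NTS: log2 fold change -2.40 ± 0.14, FDR = 4.51e-23). Sema3a, a repellent that signals through Nrp1, ran from 6.71 to 12.6 CPM (median 8.55) in PVN, from 7.62 to 14.1 (median 8.94) in ARC and from 15.5 to 32.9 (median 23.8) in NTS, so that NTS again lay above (PVN over NTS: log2 fold change -1.42 ± 0.15, FDR = 5.76e-13). Sema3f and Sema3g were lowest in ARC, at 3.38 ± 0.403 CPM and 3.59 ± 1.76 CPM, with log2 differences of PVN over ARC of 2.04 and 1.70. Sema3b and Sema3d were highest in NTS, at 4.61 ± 1.43 CPM and 13 ± 2.17 CPM.

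Of the 6 membrane-bound class 4 semaphorins, 0 passed between vehicle PVN and ARC, and 4 passed in another pair. Sema4a (PVN over NTS 0.22 ± 0.07, ARC over NTS 0.35 ± 0.07) and Sema4f (0.24 ± 0.08 and 0.37 ± 0.08) were lower in NTS than in both other regions. Sema4b was higher in ARC than in NTS (0.27 ± 0.08) and Sema4c lower (-0.25 ± 0.10). Sema4a, Sema4b, Sema4c, Sema4d, Sema4f and Sema4g had log2 differences of -0.14, -0.11, 0.07, -0.08, -0.14 and -0.28 in PVN over ARC. Scaled by library totals alone, Sema4a, Sema4f and Sema4g passed, each lower in PVN, and Sema4g also passed in IP118/PY115 libraries (log2 fold change -0.49 ± 0.12, FDR = 4.44e-04). Sema6a, a ligand of A plexins, was highest in ARC. It ran from 26.7 to 44.6 CPM (median 34.1) in PVN, from 44.5 to 61.1 (median 59.4) in ARC and from 11.9 to 25.4 (median 19.5) in NTS (ARC over NTS: log2 fold change 1.51 ± 0.10, FDR = 2.63e-20, without overlap). Sema6d was highest in NTS at 160.1 ± 22 CPM (ARC over NTS -1.18 ± 0.10), while Sema6b and Sema6c were close in all regions, at 103 to 112 CPM and 33.1 to 33.8 CPM in vehicle means, although Sema6b passed for PVN over ARC in IP118/PY115 libraries (0.26 ± 0.07). Sema5a and Sema5b were highest in PVN, at 171 ± 30.6 CPM and 10.3 ± 1.62 CPM (PVN over ARC 1.07 ± 0.09 and 0.95 ± 0.17). In IP118/PY115 libraries Sema5b passed in no pair of regions. Sema7a, anchored to the membrane by a lipid, was lowest in ARC at 15.8 ± 6.37 CPM, with 46.6 ± 9.6 CPM in PVN and 43.5 ± 17.5 CPM in NTS.

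Among semaphorin receptors, the neuropilin Nrp2 marked NTS. It ran from 59 to 76.3 CPM (median 65.6) in PVN, from 72.6 to 91.1 (median 85.3) in ARC and from 167 to 267 (median 214) in NTS, and NTS overlapped with neither other region (PVN over NTS: log2 fold change -1.70 ± 0.09, FDR = 8.37e-25). Nrp1 averaged 24.3 ± 6.54 CPM in PVN, 27.3 ± 2.7 CPM in ARC and 20.3 ± 2.34 CPM in NTS and passed in 1 pair, ARC over NTS (0.42 ± 0.13). Plxnd1, the receptor of Sema3e, was highest in PVN. It ran from 36.3 to 72.3 CPM (median 53.3) in PVN, from 14.1 to 22.2 (median 19.8) in ARC and from 8.67 to 18.4 (median 11.3) in NTS (PVN over NTS: log2 fold change 2.13 ± 0.12, FDR = 2.35e-23). PVN overlapped with neither other region, whereas its ligand was highest in NTS. Plxnc1 averaged 463 ± 50.7 CPM in PVN, 292 ± 27.8 CPM in ARC and 168 ± 31.9 CPM in NTS (PVN over NTS 1.47 ± 0.09).

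Plxnb3, a plexin that binds Sema5a, ran from 3.32 to 7.83 CPM (median 5.25) in PVN, from 3.01 to 7.72 (median 4.93) in ARC and from 7.77 to 19.3 (median 15.6) in NTS (PVN over NTS: log2 fold change -1.47 ± 0.22, FDR = 3.95e-08; groups overlapped narrowly). With the oligodendrocyte score as a covariate that difference was -0.38 (FDR = 0.0791) and did not pass. Oligodendrocyte sums did not overlap between vehicle PVN and NTS libraries, so that fit leans on the spread within groups. Plxnb1, receptor of Sema4d, and Plxnb2 differed by at most 0.28 in log2 between any 2 regions. Of the A plexins, Plxna2 and Plxna4 were highest in NTS, at 169.7 ± 23.6 CPM and 163 ± 19.8 CPM (PVN over NTS -1.17 ± 0.08 and -0.86 ± 0.10), and Plxna1 and Plxna3 were lowest there, at 83.7 ± 7.32 CPM and 62.1 ± 7.41 CPM (PVN over NTS 0.43 ± 0.07 and 0.42 ± 0.08).

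**Figure D3:**
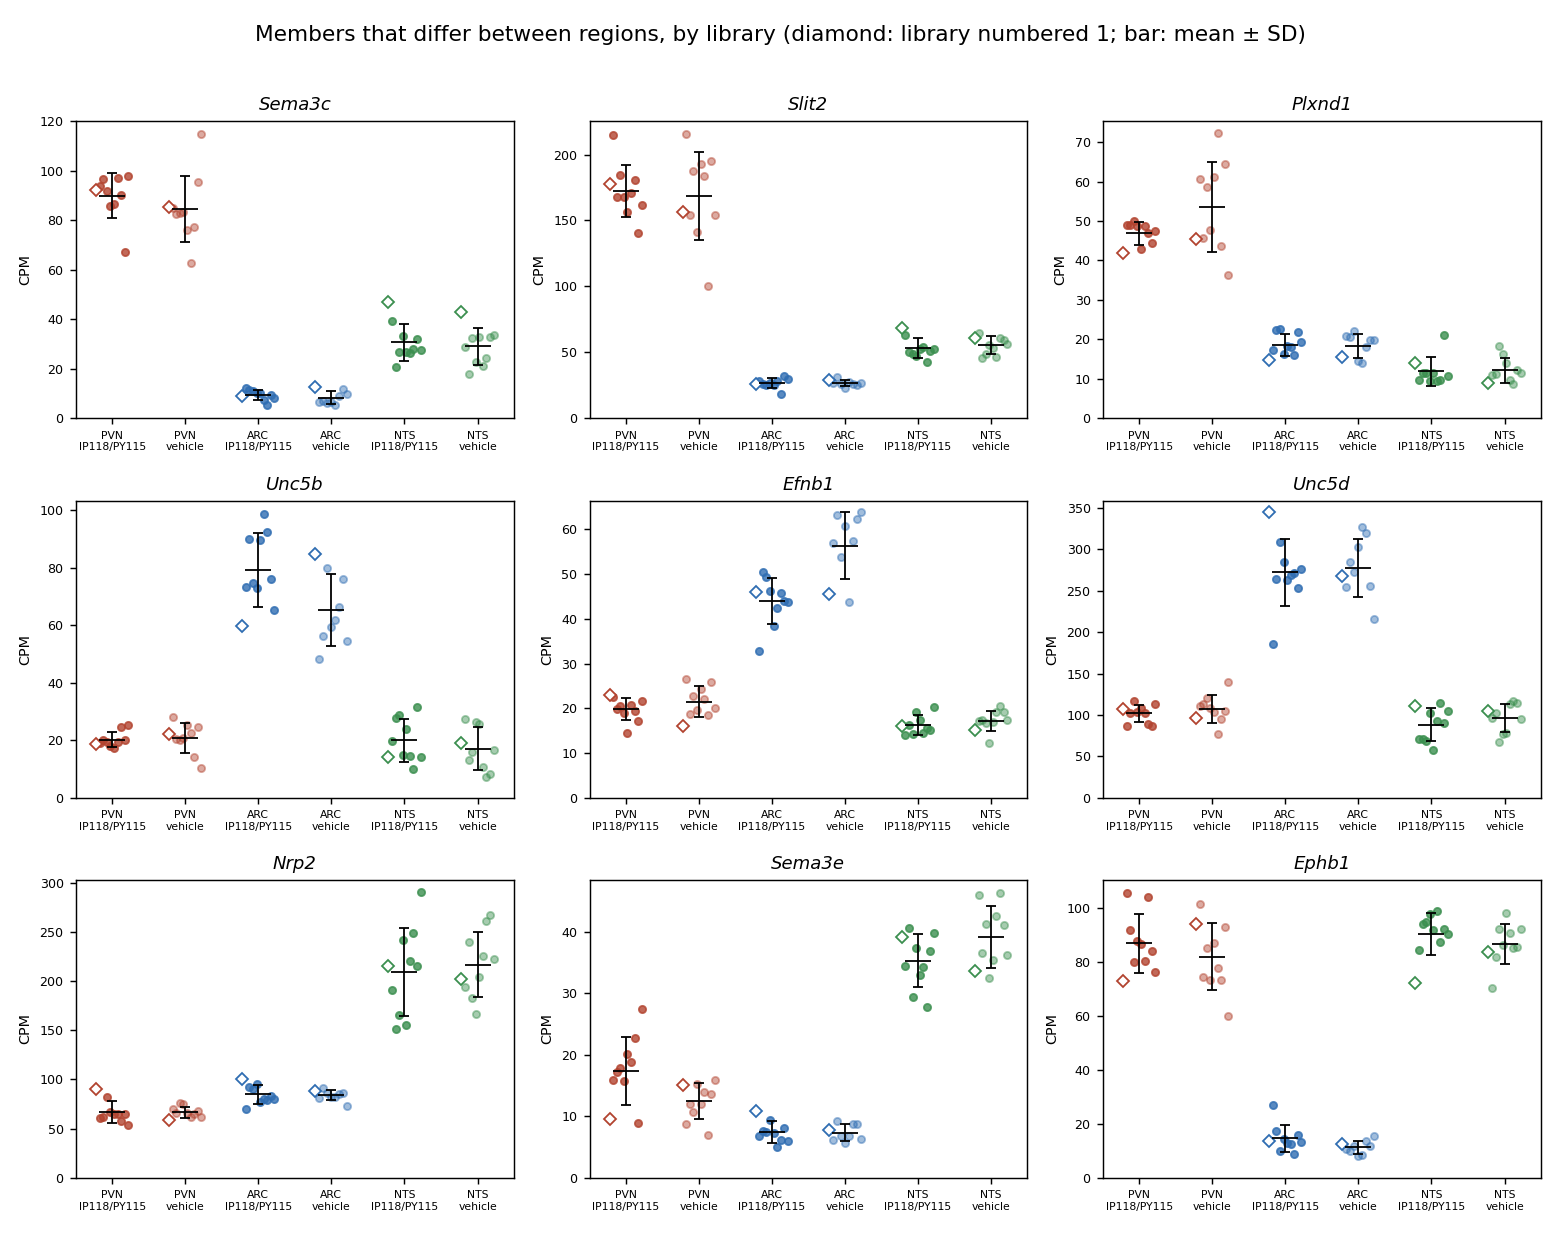
CPM of 9 members in each library, by region and with IP118/PY115 left of vehicle; bars are mean ± SD over 9 or 10 libraries and open diamonds mark the libraries numbered 1. Sema3c, Slit2 and Plxnd1 are highest in PVN, Unc5b, Efnb1 and Unc5d in ARC, Nrp2 and Sema3e in NTS, and Ephb1 is low in ARC alone.

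The IP118/PY115 libraries, which share none with the vehicle groups, were compared between regions in the same way. Among them 38 members differed between PVN and ARC (all genes 48.7%), 45 between PVN and NTS (58.8%) and 49 between ARC and NTS (63.8%). Called in both treatments were 32 members for PVN and ARC, which is 32 of 40 vehicle and 32 of 38 IP118/PY115 calls, 39 for PVN and NTS (of 42 and 45), and 47 for ARC and NTS (of 53 and 49), and all of them had the same direction. Over the 64 genes, Pearson's r between the log2 differences of the IP118/PY115 and the vehicle libraries was 0.936, 0.974 and 0.969, a description across genes, which are not independent. Epha8 lay farthest from the diagonal for PVN over ARC, with -0.31 in IP118/PY115 and 1.61 in vehicle libraries, beside its level of 17.2 CPM in ARC IP118/PY115 library 2, whose part in this was not tested.

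**Figure D4:**
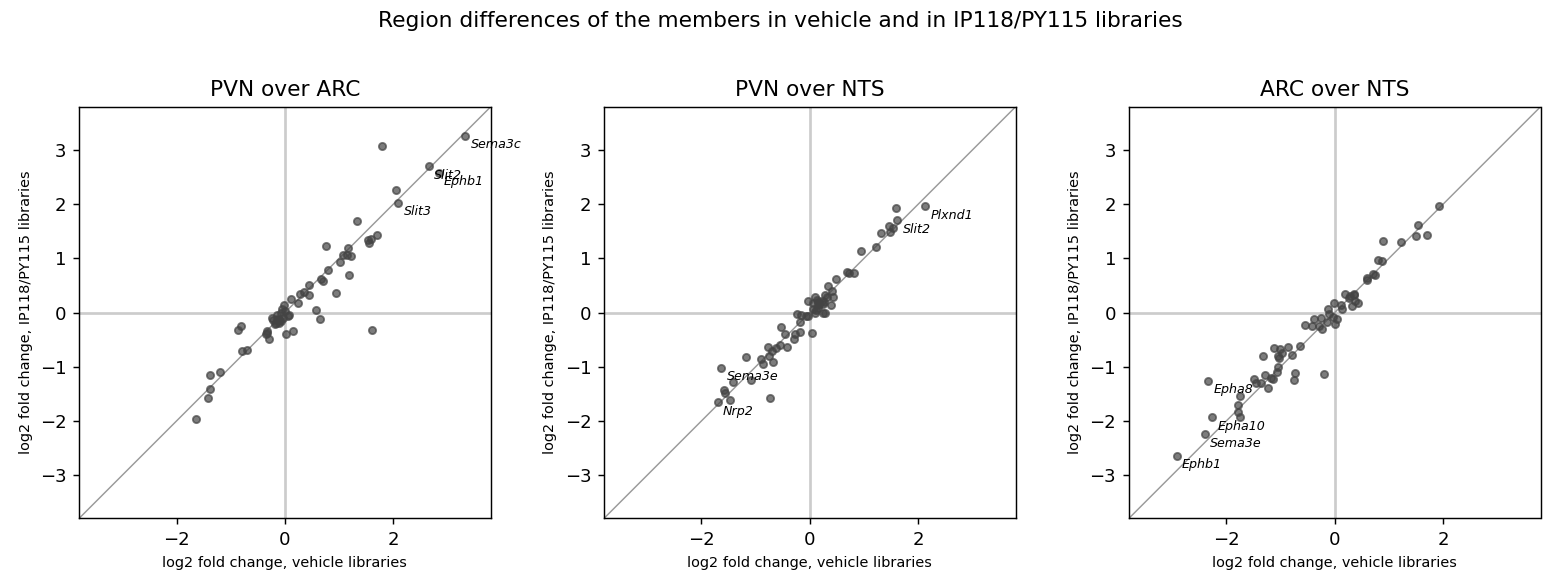
Log2 fold change between 2 regions of each of the 64 tested members, in vehicle libraries on the x axis and in IP118/PY115 libraries on the y axis; the line marks equal values and the 4 members with the largest vehicle difference are named. Points follow the line, with Pearson's r over genes of 0.936, 0.974 and 0.969.

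Of 62 other genes of these pathways (co-receptors, related cues and the signalling proteins inside the cell), 60 or 61 were tested in each region, and 0 passed for treatment in PVN, ARC or NTS by edgeR. At an unadjusted p under 0.05 stood 10, 1 and 2 of them. The number of all genes at that threshold in PVN is not given here, so the 10 are not read further. Between regions 35 of 61 passed for PVN and ARC (22 higher in PVN, 13 lower), 38 for PVN and NTS (13 and 25) and 41 for ARC and NTS (11 higher in ARC, 30 lower). That is 57.4%, 62.3% and 67.2%, where 46%, 56.1% and 61.7% of all genes passed. Rnd1, a small GTPase that binds plexins, averaged 50.8 ± 8.6 CPM in PVN, 14 ± 2.14 CPM in ARC and 39.5 ± 3.13 CPM in NTS (PVN over ARC: log2 fold change 1.86 ± 0.09, FDR = 6.96e-27). Dscaml1, an adhesion protein, averaged 54.1 ± 8.69 CPM in PVN and 19.1 ± 4.75 CPM in ARC (log2 fold change 1.49 ± 0.10, FDR = 8.75e-20). Vav2 and Vav3, exchange factors downstream of Eph receptors, averaged 12.1 ± 3.15 CPM and 4.3 ± 1.76 CPM in PVN and 35.7 ± 3.44 CPM and 36.9 ± 3.74 CPM in NTS (PVN over NTS -1.58 and -3.17). Rgma, a repulsive ligand of the Dcc relative neogenin, averaged 28.2 ± 6.95 CPM in ARC and 83.8 ± 7.54 CPM in NTS (log2 fold change -1.56 ± 0.09, FDR = 1.51e-23).

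Exons of 17 members overlap an exon of another gene, 14 of them on the opposite strand only. Ephb1, Epha10, Plxnc1, Unc5a and Unc5c are among them, with overlaps of at most 152 bases. The libraries were made with a stranded kit, and the strand setting of the counting is not given in the sources used here, so reads of such partners may be included.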

How the data were processed

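Polyadenylated RNA of laser-captured PVN, ARC and NTS was sequenced in 59 libraries. Per the submitters' processing notes, bcl2fastq 2.20.0.422 and STAR 2.5.2a with build GRCm38 were used; the read counter, its strand setting and annotation are not given in the sources used here. The deposited table holds raw counts per Ensembl gene; 0 of its sample columns were unused. Symbols and exon lengths came from GENCODE M21 (21858 of 21935 IDs matched; Ntn3 is not analysed here).

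Genes were tested with edgeR 4.0.16 in R 4.3.3 (robust quasi-likelihood, filterByExpr with a minimum count of 10 and total of 15, TMM, two-sided, FDR under 0.05 over all genes). Treatment was fitted in each region alone, and regions and differences of treatment effects in 1 fit of 6 groups. Levels are CPM with TMM over all libraries, per kb of exon where genes are compared. The fits were tested on simulated data. Alternatives included DESeq2 1.42.0, limma-voom (limma 3.58.1), other scalings, filters, covariates and left-out libraries. Full values are given for members past the threshold for treatment, the 4 of smallest p per region, the 4 largest differences in each direction per pair of regions among called members of at least 5 CPM, the highest per kb of each family, and of the other pathway genes the 2 called ones of smallest p. Other named genes were chosen after their values were seen. The members and lists were chosen with earlier results of these data known. Library numbers follow deposition order within a group.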

Additional observations from a re-analysis of the deposited data

Results flagged for a closer look

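Among the members named for a comparison, 60 groups of values were searched for a library far from the others of its group. Such a library was found in 3, no more than the about 5% of groups that chance alone gives. Epha2 stood at 8.88 CPM in vehicle library 1 of PVN, with the other 9 at 1.90 to 5.53 CPM. Plxna2 stood at 51.3 CPM in vehicle library 10 of PVN, with the others at 67.9 to 85.7 CPM. Unc5c stood at 76.3 CPM in vehicle library 8 of PVN, with the others at 104.5 to 129 CPM. Vehicle library 1 is one of those that went against their labels, and libraries 8 and 10 are among those with label numbers apart from the rest.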

How the results depend on the processing

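No paired analysis was possible because the labels carry no replicate numbers shared between groups and do not tie libraries to animals. In PVN the 2 members called for treatment became 4 with limma-voom and 0 with log10 library total as a covariate, 0 with the oligodendrocyte score and 0 without the vehicle libraries numbered 5553 to 5557; leaving out 1 library at a time gave 0 to 2. In ARC the count of 0 became 2 with DESeq2, 1 with the oligodendrocyte score and 2 without the libraries numbered 1, and 0 to 2 with 1 library left out. In NTS it was 0 in each alternative run. Between regions, the test against a 1.5-fold change lowered the counts from 40, 42 and 53 to 24, 21 and 33, as a stricter test must. The endothelial score lowered PVN and ARC to 15 and ARC and NTS to 33. The difference of treatment effects of PVN minus NTS gave 1 member without the libraries numbered 1. For shifts with a covariate the cause was not tested. Of 29 refits each for PVN, Epha2 kept its call in 14 and lost it in 15, and Ephb3 kept it in 13 and lost it in 16, with no change of sign. Without a call as reported, Efnb2 passed in 5 and Efnb1 in 4 of 29 refits in ARC. For the largest region differences, held by 16 members, 214 of 216 refits kept side and sign and 2 lost the call; among other members the endothelial score turned Epha4, Epha7, Epha8 and Sema7a between PVN and ARC. Members under about 2 CPM, such as Epha2 in ARC, are limited by depth.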
